A study of Mus musculus with 28 samples.

Results

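The genes described here are 43 mouse genes of DNA repair and damage signalling, compared between mice that overexpressed human APOBEC3B (A3B) and control mice. They were taken by name from 9 repair routes, by a rule that uses no measured value, although the list was drawn up with earlier results of these data known, and are 43 of the 35928 gene symbols quantified in set 2 and of the 24845 gene names in set 1. Mismatch repair had 4 members (Msh3, Msh6, Pms2, Exo1) and homologous recombination 10 (Brca1, Brca2, Palb2, Bard1, Rad51b, Rad51c, Xrcc2, Xrcc3, Rad52, Rad54l). Break sensing had 2 (Nbn, Rad50), the Fanconi anaemia route 4 (Fanca, Fancd2, Fanci, Fancm), the checkpoint 5 (Atm, Atr, Chek1, Chek2, Rad17) and the single-strand binding complex RPA 3 (Rpa1, Rpa2, Rpa3). Translesion synthesis had 7 (Rev1, Rev3l, Mad2l2, Polh, Poli, Polk, Rad18), end joining 4 (Xrcc5, Xrcc6, Prkdc, Lig4), and nucleotide excision repair with DNA ligase 1 also 4 (Ercc1, Xpa, Xpc, Lig1).

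RNA-seq had been run on 28 tissue samples in 2 sets. Set 2 held livers and pancreases from 6 A3B and 2 control samples per tissue, all labelled as 10 days on doxycycline; 5 A3B mice and both control mice gave both tissues. Set 1 held 3 A3B and 3 control samples each of liver and lung, with A3B livers at 10 or 14 days, A3B lungs at 10 days and controls labelled as 15 days, and mice 70 (A3B) and 91 (control) gave both tissues. A3B mice carried TetO-A3B-tGFP, human A3B fused to turboGFP in the ColA1 locus, and CAGs-rtTA3, a ubiquitous driver that switches the transgene on under doxycycline. Most controls had the A3B transgene but no driver; the set 1 control liver 11 carried both transgenes and control lung 87 the driver alone. Mice were 4 weeks old at the start, and the diet held 625 ppm doxycycline. The study's mouse list gives no doxycycline for the set 1 controls other than lung 87, which differs from the labels, so arm and diet cannot be told apart there. For the set 2 controls that list gives the same doxycycline time as the labels, and the study's methods have control littermates on the doxycycline diet, whereas a figure legend describes the control animals as without it; the sources used here do not settle which holds. For 4 of the pancreases (A3B 44 and 137, controls 45 and 168) the genotype label is the opposite of the sample title; samples were grouped by title. Cdkn1a, a p53 target, was at 276.2 and 224.7 CPM (after the TMM scaling of edgeR) in A3B pancreases 44 and 137 and at 76.81 and 17.04 in control pancreases 45 and 168, the other 4 A3B pancreases having 161.7 to 206.2, so these values separate the groups as titled.

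A3B removes the amino group of cytosine in single-stranded DNA and leaves uracil. Uracil that is excised on a replicating strand can stall the fork: RPA coats the exposed strand, Rad17 loads the checkpoint clamp beside it, and Atr and Chek1 hold the cell cycle. Translesion polymerases copy across the gap, mismatch repair removes mispaired bases, and broken ends go to recombination with Brca1 and Brca2 or to end joining with Xrcc5, Xrcc6, Prkdc and Lig4.

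Promoter windows from 250 bases before to 50 bases after an annotated start (RefSeq, GRCm38.p6) were on hand for 34 of the 43 members, as 43 windows of 300 bases. Windows are printed for Rad17, the member called in the most comparisons, and for Lig1, Brca1 and Msh6. These last were called higher in the pancreas and are counted here among the proliferation-linked members. For Lig1 the second of its windows is shown, since it holds a motif match. Each is written 5′ to 3′ on the gene's strand, in lower case, and capitals mark a match on either strand to TTTNNCGC (E2F-like) or to CCAAT, motifs that share no letters in these windows.
Rad17, chr13:100651012-100651311, minus strand: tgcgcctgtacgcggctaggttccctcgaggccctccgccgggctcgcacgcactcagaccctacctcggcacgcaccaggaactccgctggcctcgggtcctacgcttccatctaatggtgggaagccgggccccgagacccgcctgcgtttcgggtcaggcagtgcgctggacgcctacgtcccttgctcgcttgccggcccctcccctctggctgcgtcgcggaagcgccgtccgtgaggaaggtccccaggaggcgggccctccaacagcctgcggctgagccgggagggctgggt
Lig1, chr7:13278576-13278875, plus strand: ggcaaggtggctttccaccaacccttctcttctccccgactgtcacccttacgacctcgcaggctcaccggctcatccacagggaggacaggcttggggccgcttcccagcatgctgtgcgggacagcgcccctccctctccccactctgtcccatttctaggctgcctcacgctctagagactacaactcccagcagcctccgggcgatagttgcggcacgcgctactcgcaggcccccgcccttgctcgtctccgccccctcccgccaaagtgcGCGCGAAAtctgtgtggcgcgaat
Brca1, chr11:101551906-101552205, minus strand: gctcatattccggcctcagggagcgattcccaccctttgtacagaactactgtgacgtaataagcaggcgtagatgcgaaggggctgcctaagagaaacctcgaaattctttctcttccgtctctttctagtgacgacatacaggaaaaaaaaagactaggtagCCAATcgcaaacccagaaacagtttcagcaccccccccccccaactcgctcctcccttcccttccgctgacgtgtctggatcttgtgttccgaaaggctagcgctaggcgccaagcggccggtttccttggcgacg
Msh6, chr17:87974800-87975099, plus strand: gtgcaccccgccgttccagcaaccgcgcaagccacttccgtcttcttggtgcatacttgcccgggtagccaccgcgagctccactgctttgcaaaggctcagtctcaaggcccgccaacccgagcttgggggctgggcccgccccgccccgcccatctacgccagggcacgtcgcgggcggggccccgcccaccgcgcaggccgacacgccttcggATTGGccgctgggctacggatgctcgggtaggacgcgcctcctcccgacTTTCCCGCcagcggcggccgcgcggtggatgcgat
The Rad17 window holds none of these letters, the Lig1 window holds the E2F-like letters read from the opposite strand, the Brca1 window holds CCAAT, and the Msh6 window holds both motifs. TTTNNCGC was found in 9 of 43 member windows (20.9%), belonging to 8 genes, against 5.17% of 32851 windows of all genes. CCAAT was found in 20 of 43 (46.5%) against 37.4%, and TTTGAA, the CHR motif of cell cycle genes, in 2 of 43 (4.65%) against 17.9%. These are matches of letters and were not tested as binding sites.

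The set 2 libraries held 65161064 to 118976013 estimated counts. Marker sums fitted the labelled tissues: 8 hepatocyte markers summed to 32310 to 144800 TPM in set 2 livers and at most 998.2 TPM in pancreases, 13 acinar markers to at least 76070 TPM in pancreases and at most 605.9 TPM in livers, and 6 lung epithelial markers to 18230 to 20620 TPM in lungs. In set 1 the human transgene itself was quantified, at 705 to 1705 TPM in A3B livers and 90.6 to 281 TPM in A3B lungs, and at 0.0929 to 0.144 and 0.435 to 0.5257 TPM in the respective controls. In set 2 the transgene was not analysed here. Cdkn1a, the p53 target that encodes the cell cycle inhibitor p21, was higher in A3B samples of both set 2 tissues and both set 1 tissues, with log2 fold changes of 2.14 (SE 0.52) in pancreas, 4.61 (SE 0.73) in liver, 2.91 (SE 0.32) in set 1 liver and 2.83 (SE 0.15) in lung.

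In the pancreas of A3B mice members of most routes were called in one direction or the other. DNA ligase 1 (Lig1), the exonuclease Exo1 and the recombination factor Brca1 had the highest fold changes, and the polymerase Poli and the RPA subunit Rpa3 the lowest. Of the 43 members, all tested, 11 were called higher and 6 lower at an adjusted p under 0.05 (edgeR quasi-likelihood test), against 17% of 19142 genes called higher and 14.9% called lower. As shares of the members these are 25.6% and 13.95%, the lower calls thus being near the share among all genes. The members' median log2 fold change was 0.15, beside 0.09 for all genes tested. Values below are CPM after TMM scaling unless TPM is named, and samples of A3B mice are given as lowest, median and highest of 6. Every A3B pancreas lay above both controls for 14 members, which 25.1% of all genes did, and below both for 9, which 18.9% did.

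**Figure D1:**
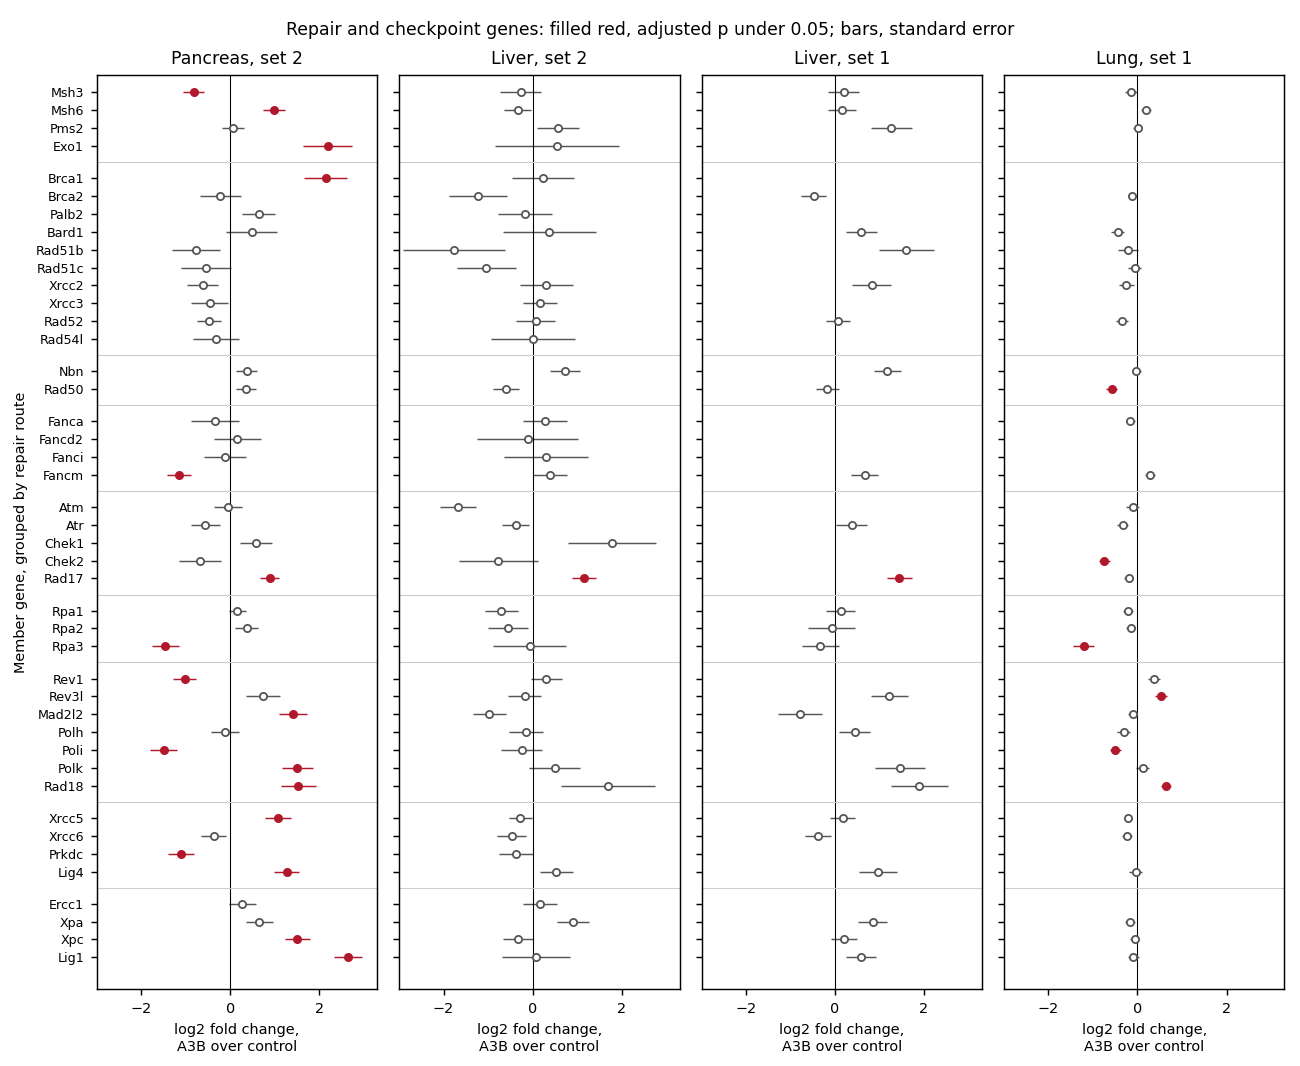
Log2 fold change of A3B over control for the 43 members in 4 comparisons, grouped by repair route, with bars of 1 standard error and filled points for an adjusted p under 0.05; members below the expression minimum in set 1 have no point. The pancreas shows 17 filled points on both sides of 0, the livers 1 each, and the lung 6.

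Lig1, which seals nicks between Okazaki fragments and in excision repair, measured 4.99 and 5.52 in the control pancreases and 24.9, 31.6 and 43.85 in A3B. Every A3B pancreas lay above both controls, and the log2 fold change was 2.65 (SE 0.32, adjusted p = 0.000347), the largest among the members. Xpc, which recognises distorted DNA in nucleotide excision repair, measured 10.9 and 7.06 in controls and 21.2, 23.2 and 34.2 in A3B. Its groups did not overlap either, with a log2 fold change of 1.5 (SE 0.28, adjusted p = 0.00314). Xpa and Ercc1, which verify the lesion and cut beside it, had fold changes of 0.65 and 0.27 and were not called.

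In mismatch repair, 2 of 4 members rose and 1 was called lower. Exo1, which degrades the strand that holds the error, was at 0.931 and 0.308 in controls and 1.67, 2.97 and 3.48 in A3B, a log2 fold change of 2.19 (SE 0.56, adjusted p = 0.0137). Msh6, which finds single mismatches, was at 8.60 and 7.66 in controls and 12.4, 16.1 and 20.6 in A3B, a log2 fold change of 0.98 (SE 0.25, adjusted p = 0.0148). Msh3, its counterpart for larger loops, was called lower at −0.82 (SE 0.24, adjusted p = 0.0234). Pms2, the endonuclease subunit, differed by 0.06.

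Of the 10 recombination genes only Brca1 was called. It measured 10.0 and 2.85 in the controls, which lay far apart, and 15.7, 30.3 and 34.0 in A3B, with a log2 fold change of 2.14 (SE 0.49, adjusted p = 0.00849). Its partners Bard1 and Palb2 had fold changes of 0.48 and 0.64, and Brca2, which acts on resected ends, −0.22. The paralogs Rad51b, Rad51c, Xrcc2 and Xrcc3 lay between −0.76 and −0.46, with Rad52 at −0.48 and Rad54l at −0.32. Both break sensors were uncalled, with Rad50 at 0.36 and Nbn at 0.37.

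The Fanconi anaemia route, which repairs crosslinks, had 1 call among 4. Fancm, the translocase that recruits the core complex, was at 7.45 and 7.44 in controls and 2.66, 3.44 and 4.04 in A3B, a log2 fold change of −1.15 (SE 0.28, adjusted p = 0.0105). Fanca, Fancd2 and Fanci lay between −0.34 and 0.16.

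Among checkpoint genes, Rad17 rose. It was at 8.55 and 8.13 in controls and 13.6, 14.9 and 18.2 in A3B, so that the lowest A3B pancreas exceeded both controls, with a log2 fold change of 0.89 (SE 0.21, adjusted p = 0.0099). The kinases Atm, Atr, Chek1 and Chek2 were uncalled, at −0.06, −0.56, 0.57 and −0.67. The Rad17 gene (chr13:100617164-100651051, GRCm38, minus strand) shares exonic sequence with Ak6 on the other strand. Ak6 was called lower in the pancreas by edgeR, at a log2 fold change of −0.67 (adjusted p = 0.0308). It had 0.42 in the liver, −0.69 in the livers of set 1 and −0.39 in the lung. On protein-coding transcripts alone Rad17 missed the threshold (0.66, adjusted p = 0.054) while Chek1 was called (2.11), and the lower calls of Msh3 (−0.30, adjusted p = 0.542), Rev1 (−0.497, adjusted p = 0.121) and Fancm (−1.40, adjusted p = 0.0592) were lost by edgeR's test as well. Rpa3, the smallest RPA subunit, was at 14.0 and 18.0 in controls and 2.97, 6.11 and 7.36 in A3B, a log2 fold change of −1.46 (SE 0.31, adjusted p = 0.00554), whereas Rpa1 and Rpa2 were uncalled at 0.15 and 0.37.

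Translesion synthesis had 5 of 7 members called, 3 higher and 2 lower. Rad18, the ligase that ubiquitylates PCNA and so brings these polymerases to the fork, was at 1.10 and 2.56 in controls and 4.36, 5.26 and 6.52 in A3B (log2 fold change 1.53, SE 0.40, adjusted p = 0.0147). Polk, which extends from bulky lesions, was at 4.66 and 6.45 in controls and 10.7, 13.9 and 22.1 in A3B (1.51, SE 0.35, adjusted p = 0.00846). Mad2l2, the accessory subunit of polymerase zeta, was at 4.99 and 3.22 in controls and 8.11, 10.2 and 14.8 in A3B (1.41, SE 0.32, adjusted p = 0.00791). All 3 separated the groups completely. Rev1, the deoxycytidyl transferase and scaffold, was at 50.9 and 51.85 in controls and 17.25, 26.5 and 32.2 in A3B (−1.02, SE 0.26, adjusted p = 0.0137). Poli, a polymerase of the same family, was at 11.8 and 10.55 in controls and 2.75, 3.70 and 5.86 in A3B (−1.5, SE 0.30, adjusted p = 0.00403). The other two, Rev3l and Polh, were uncalled at 0.74 and −0.12.

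In end joining Lig4, which seals the joined ends, was at 2.63 and 2.49 in controls and 5.26, 6.10 and 7.15 in A3B (1.27, SE 0.28, adjusted p = 0.00706). Xrcc5 (Ku80), 1 side of the ring that binds broken ends, was at 6.74 and 5.50 in controls and 8.77, 12.4 and 17.95 in A3B (1.07, SE 0.29, adjusted p = 0.0173). Its partner Xrcc6 (Ku70) was uncalled at −0.37, and Prkdc, the kinase they recruit, was called lower at −1.12 (SE 0.29, adjusted p = 0.0155).

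The pancreas calls rest on the scaling between libraries. The 10 most abundant genes, largely digestive enzymes, took 46.9 to 47.8% of TPM in controls and 17.7 to 31.7% in A3B, and the 13 acinar markers summed to 421100 to 421600 TPM in controls and 76070 to 195700 in A3B, with 12 called lower. TMM factors were 0.21 to 0.443 in controls and 1.3 to 1.79 in A3B. Scaled by library totals alone, all genes had a median shift of 2.29 on the log2 scale and all 43 members were positive, 36 of them called higher and none lower (edgeR; 0 of 43 members had a negative fold change), where 70.4% of all genes were called higher and 1.1% lower, and the 6 called lower with TMM scaling then had fold changes of 0.69 to 1.42. With limma on log2(TPM + 1), 30 of 34 members tested were called higher and 0 lower, where 83.9% of the 13597 genes tested were called higher and 152 genes lower. TMM scaling and library totals differ mainly by a shift common to all genes, so the order of the members is nearly the same by construction in the plot of both scalings. In TPM, every A3B pancreas lay above both controls for 32 of 43 members (74.4%), which 70.8% of all genes tested also did. In bulk tissue, fewer cells of a type and less RNA per cell cannot be told apart.

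**Figure D2:**
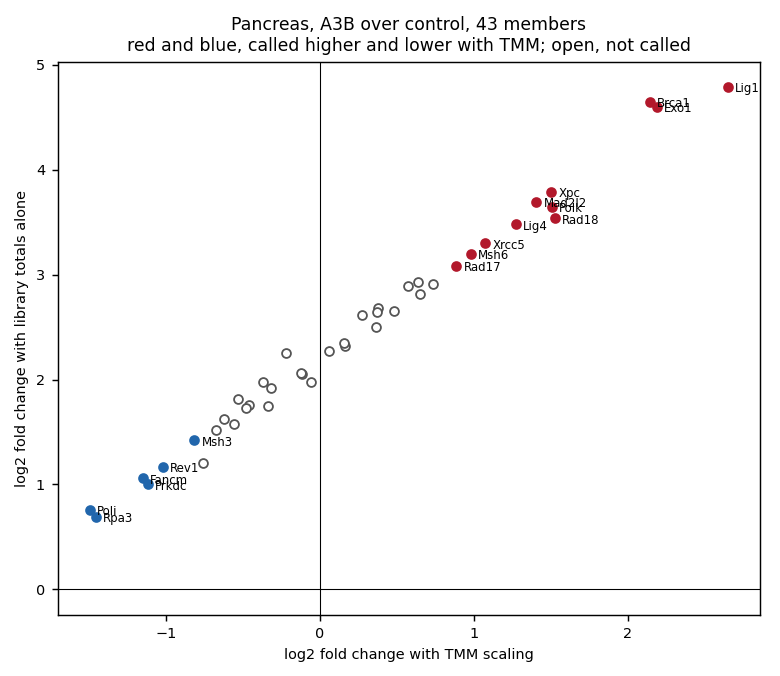
Log2 fold change in the pancreas of each of the 43 members with TMM scaling (horizontal) and with library totals alone (vertical); red and blue are members called higher and lower with TMM scaling, open circles are uncalled. All points lie above 0 on the vertical axis, and the 6 blue points lie left of 0 on the horizontal axis.

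Some markers of other cells moved with the same contrast. In the pancreas 5 of 8 macrophage, 6 of 7 fibroblast and 4 of 7 ductal markers were called higher. Of T cell and of B and plasma cell markers 0 were called by edgeR, and of 6 neutrophil markers 1 was called higher and 1 lower. The controls differed from each other, with B and plasma cell markers at 118.7 TPM in control 168 and 1.58 TPM in control 45, T cell markers at 47.05 and 0.471 TPM and macrophage markers at 520.4 and 38.3 TPM. Of 20 proliferation markers 6 were called higher, all of them subunits of the Mcm replicative helicase, with Mcm3 at 2.59 (SE 0.37), Mcm4 at 1.89 (SE 0.32) and Mcm6 at 2.05 (SE 0.37). The sum of the 20 was 152.9 to 370.1 TPM in A3B and 26.5 and 55.5 TPM in controls. On that scale 70.8% of all genes tested lay above both controls in every A3B pancreas. After TMM scaling the 20 had a median log2 fold change of 0.41. Mki67, a marker of cells in cycle, was at 27.1 and 22.2 CPM in controls and 9.07 to 35.0 CPM in A3B, a log2 fold change of −0.26 (adjusted p = 0.63). Of 23 p53 targets 14 were called higher, led by Btg2 (2.98), Sesn2 (2.70) and Trp53inp1 (2.56). The part of these cell types in the members' changes was not tested. Without control 45 or without control 168, which leaves 1 control, fewer members were called, and fewer of all genes. The members' median log2 fold change was 0.19 and 0.17, beside 0.17 and 0.31 for all genes. Lig1, Brca1, Xpc, Lig4 and Rad17 stayed higher, and Rpa3 and Poli lower, without either control, while the calls of Msh6, Xrcc5, Msh3 and Rev1 were lost both times.

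In the liver of the same set Rad17 alone was called higher. Among members called higher in the pancreas, Lig1 (0.08), Exo1 (0.55), Brca1 (0.23) and Xpc (−0.34) were uncalled here. With DESeq2, which called 1302 genes higher and 1099 lower of 17049, 1 member was called higher and 1 lower. With edgeR 1 of 43 members was called higher and 0 lower (4 had an unadjusted p under 0.05), against 1.25% and 2.41% of 17376 genes. These background counts, 218 genes higher and 418 lower, turn on single mice, with 3 and 70 without control 168, 10 and 64 without control 45, and 653 and 943 without A3B liver 49. The median log2 fold change was −0.06, beside 0.21 for all genes. Every A3B liver lay above both controls for 3 members, which 15% of genes did, and below both for 4, which 12.8% did.

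Rad17 was at 9.38 and 12.3 in the control livers and 19.1, 24.2 and 29.7 in A3B livers. All 6 A3B livers lay above both controls, with a log2 fold change of 1.16 (SE 0.27, adjusted p = 0.0458). The call was near the threshold. It was lost with RLE factors, with no low-count filter, and on leaving out A3B liver 44, 125, 137 or 153 or either control, where the fold change ran from 0.88 (without control 45) to 1.29 (without control 168) and the adjusted p from 0.052 to 0.45. Without A3B liver 48 or 49 it held (1.02 and 1.11). In TPM, Rad17 read 4.62 and 5.09 in controls and 11.3, 13.5 and 19.6 in A3B livers. The sum of the 8 hepatocyte markers moved with the arm, at 87440 and 144800 TPM in controls and 32310 to 84590 TPM in A3B livers, with 0 of the 8 called, and its part in the liver values was not tested.

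**Figure D3:**
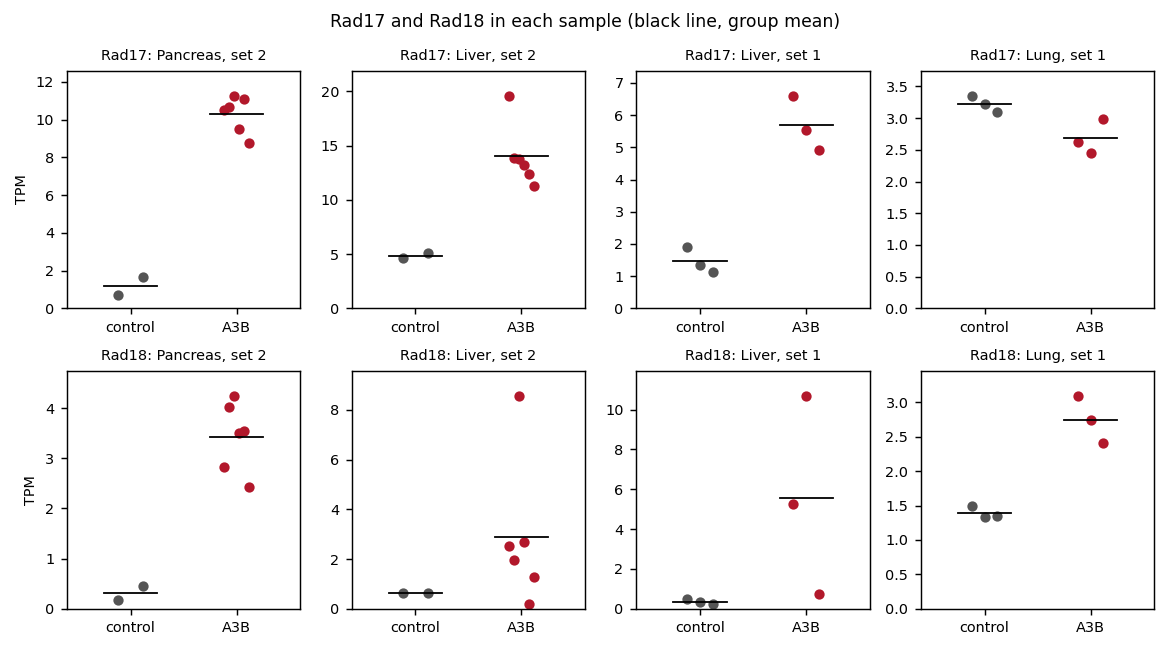
Rad17 (upper row) and Rad18 (lower row) in TPM in each sample of the 4 tissue and set groups, grey for control and red for A3B, with a line at the group mean; each panel has its own axis. Rad17 separates the groups upward in the pancreas and both livers and lies lower in A3B lungs, while Rad18 is spread in the A3B livers, with liver 49 at 8.55 TPM and liver 48 at 0.206 TPM. In pancreas TPM, 70.8% of all genes tested also lay above both controls in every A3B sample. After TMM scaling the Rad17 log2 fold change there was 0.89.

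Atm, the kinase that answers double-strand breaks, was at 11.9 and 14.5 in control livers and 2.05, 4.24 and 6.36 in A3B. Every A3B liver lay below both controls by this scale, with a log2 fold change of −1.67 (SE 0.40), yet the adjusted p was 0.0516. It was called lower with DESeq2 (−1.75, adjusted p = 0.00167), with RLE factors, on protein-coding transcripts alone, and without A3B liver 48 or 49. In TPM the groups overlapped, at 2.90 and 1.80 in controls and 0.3575 to 2.30 in A3B. Summed over the 16 samples of set 2, 10 members had under 50% of their TPM in protein-coding transcripts (Msh3, Pms2, Brca2, Palb2, Rad52, Rad54l, Fanca, Atm, Rev3l and Ercc1), the remainder coming from transcripts of other classes, such as retained introns. For Brca2 the median share was 3.73% in A3B livers and 4.84% in A3B pancreases, while for Rad17 it was 90.02% and 85.8%.

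For each remaining route the member with the smallest p in the liver was as follows. In mismatch repair Pms2 had a log2 fold change of 0.57 (adjusted p = 0.499), at 2.50 and 2.26 in controls and 2.29 to 5.61 in A3B. In recombination Brca2 had −1.23 (adjusted p = 0.292), at 7.59 and 4.61 in controls and 1.06 to 5.52 in A3B. Nbn, of the complex that senses breaks, was at 14.5 and 16.9 in controls and 20.7, 22.75 and 43.6 in A3B, which did not overlap, with 0.72 (adjusted p = 0.233). Fancm had 0.39 (adjusted p = 0.572), at 5.46 and 6.43 in controls and 4.56 to 11.5 in A3B. Its difference between pancreas and liver was not called by edgeR's interaction test (−1.38, adjusted p = 0.0567). Rpa1, the largest RPA subunit, had −0.70 (adjusted p = 0.289), with A3B liver 48 at 9.35 and the other A3B livers at 20.3 to 28.65, beside 42.4 and 32.6 in controls. Mad2l2 was below both controls in every A3B liver, at 5.07, 9.08 and 13.6 against 16.7 and 20.3, with −0.97 (adjusted p = 0.165). Xrcc6 had −0.47 (adjusted p = 0.417), at 20.8 and 17.5 in controls and 9.49 to 21.0 in A3B. Xpa was at 8.21 and 10.4 in controls and 10.8, 17.05 and 25.1 in A3B, which did not overlap, with 0.90 (adjusted p = 0.171).

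Liver 49 had the highest Exo1, Brca1 and Rad18 of the A3B livers. Its Exo1 was 2.04 against 0.074 to 0.203 in the other A3B livers, its Brca1 10.6 against 1.63 to 4.32, and its Rad18 15.1 against 0.556 to 5.03. Of these 3 only Exo1 was set apart by Dixon's gap test. Msh6, counted here among the proliferation-linked members, was ordinary in liver 49, at 12.3 against 7.14 to 13.3. Its proliferation markers summed to 288.5 TPM, where the other A3B livers had 66.9 to 92.9 and the controls 134.6 and 76.9, and its hepatocyte markers had the lowest sum of the 8 livers. Its macrophage (806.2 TPM), neutrophil (125.9 TPM), T cell (13.3 TPM) and B and plasma cell markers (9.49 TPM) had the highest sums of the 8, and the part of any of these in its values was not tested. Mki67 was at 24.3 in liver 49, at 0.337 to 1.27 in the other A3B livers and at 8.54 and 2.49 in controls (log2 fold change −0.22, adjusted p = 0.948). With livers 48 and 49 left out together, a setting chosen after seeing the data, Rad17 was still called (1.04) and Brca2 (−2.15), Rad51b (−3.98) and Atm (−1.75) were called lower, where 8.73% of all genes were called higher and 9.64% lower. Of 23 p53 targets 4 were called higher in the liver (Cdkn1a, Mdm2, Trp53inp1 and Rrm2b) and 0 lower, and in the interaction with the pancreas 0 of 23 were called higher there and 1, Rrm2b, lower. In the liver 1 of 20 proliferation markers was called lower (Tk1, −1.85).

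**Figure D4:**
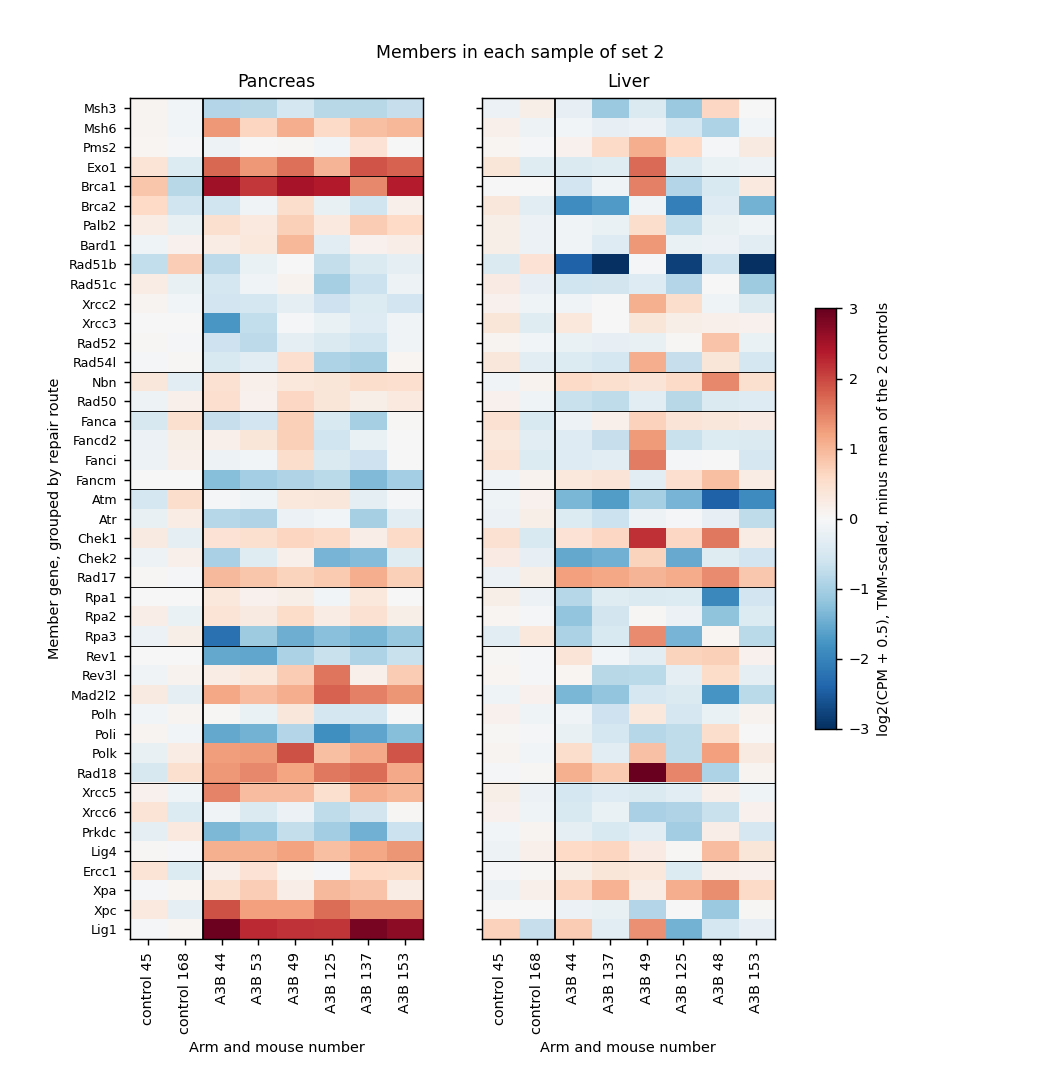
Each of the 43 members in each set 2 sample as log2(CPM + 0.5) after TMM scaling, minus the mean of the 2 controls of that tissue, from blue (lower) to red (higher), with colours ending at −3 and 3. The A3B pancreases resemble each other row by row, while in the livers mouse 49 is red for Exo1, Brca1, Bard1, Fanci, Chek1 and Rad18 and Rad17 is red in all 6.

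The difference between the tissues was tested as an interaction. With DESeq2, 7 members were called more positive in the pancreas and 2 less, where it called 1844 and 1919 of 18525 genes. With edgeR, Mad2l2, Xpc, Msh6, Xrcc5, Atm, Rad50 and Lig1 were called more positive in the pancreas than in the liver. These are 7 of 43 members with 0 in the opposite direction (12 had an unadjusted p under 0.05), against 6.87% and 5.02% of 19927 genes. The difference in log2 fold change was 2.54 for Mad2l2 (SE 0.51, adjusted p = 0.00766), called higher in the pancreas and measured at −0.97 in the liver. For Xpc it was 2.01 (SE 0.45, adjusted p = 0.0116), for Xrcc5 1.52 (SE 0.40, adjusted p = 0.0231) and for Msh6 1.48 (SE 0.39, adjusted p = 0.0246). These 3 had fold changes of −0.34, −0.28 and −0.33 in the liver. For Atm the difference was 1.77 (SE 0.54, adjusted p = 0.0442), with the liver at −1.67 and the pancreas at −0.06, neither of them called. Rad50 differed by 1.123 (adjusted p = 0.047) and Lig1 by 2.75 (SE 0.87, adjusted p = 0.04997). Rad17 differed by −0.11 (SE 0.30, adjusted p = 0.864) and Rad18 by 0.01 (SE 1.10). With the mouse as a block 5 members were called and Rad50 and Lig1 were not. Leaving out control 45 or 168 left 0 calls, with all 7 differences still positive. With library totals alone 21 members were called higher, as were 7848 of 19927 genes. The median of all genes was then 1.59, so the interaction shares the pancreas limit on scaling.

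The livers of set 1 came from other mice and another processing, and are in TPM. Rad17 rose here too. Of 43 members 27 passed the minimum mean of 1 TPM, of which 1 was called higher and 0 lower (limma on log2(TPM + 1); 8 had an unadjusted p under 0.05), against 6.07% and 1.86% of 11507 genes, and the members' median was 0.44 beside 0.39 for all genes. The background counts of 699 genes higher and 214 lower fell to 1 and 0 without control 91, to 7 and 2 without control 92 and to 43 and 12 without A3B liver 23. The groups did not overlap upward for 7 of the 27 members and downward for 2, which 28.5% and 10.3% of all genes did. The 16 members below the minimum, among them Exo1, Brca1, Fancd2, Chek1 and Atm, were not tested.

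Rad17 was at 1.92, 1.35 and 1.122 TPM in control livers 11, 91 and 92 and at 6.59, 5.53 and 4.92 TPM in A3B livers 23, 28 and 70. The lowest A3B value was above the highest control, and the difference on log2(TPM + 1) was 1.45 (SE 0.28, adjusted p = 0.0342). This call too was near the threshold. It was lost without A3B liver 23 or control 91 or 92 (1.34 to 1.42), with no filter on low values, and after centring each library on the median of all genes (1.06, adjusted p = 0.0554). Nbn was at 7.95, 5.87 and 6.02 TPM in controls and 20.8, 14.1 and 14.0 TPM in A3B (1.17, adjusted p = 0.0531). Rad18 was at 0.511, 0.337 and 0.228 TPM in controls and 5.28, 10.7 and 0.748 TPM in A3B (1.90, SE 0.65, adjusted p = 0.0961), without overlap but with liver 70 close to the controls. In these livers Cdkn1a was at 0.887, 0.806 and 0.154 TPM in controls and 11.6, 8.80 and 12.6 TPM in A3B. Mki67 was at 0.67, 1.90 and 2.05 TPM in controls and 0.191, 3.21 and 0.341 TPM in A3B (−0.38, adjusted p = 0.645). Of 19 p53 targets tested 6 were called higher, with Btg2 at 3.84 and Trp53inp1 at 3.45, and 0 lower. The hepatocyte markers summed to 7114 to 8242 TPM in controls and 2515 to 6048 TPM in A3B, with 1 of 8, Serpina1c, called lower, and their part in these values was not tested.

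The livers of both sets shared no animals. Of the 27 members tested in both, 18 had fold changes of the same sign (66.7%), beside 77.3% of the 10886 genes tested in both. Positive in both were Pms2, Bard1, Xrcc2, Rad52, Nbn, Fancm, Rad17, Polk, Rad18, Lig4, Xpa and Lig1, and negative in both were Brca2, Rad50, Rpa2, Rpa3, Mad2l2 and Xrcc6. Across the 27 members Pearson's r between the sets was 0.586, and across all 10886 genes 0.75; genes are not independent replicates, and no test was made. Rad51b showed the widest disagreement, at −1.77 (SE 1.15) in set 2 and 1.6 (SE 0.62) in set 1, both uncalled.

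**Figure D5:**
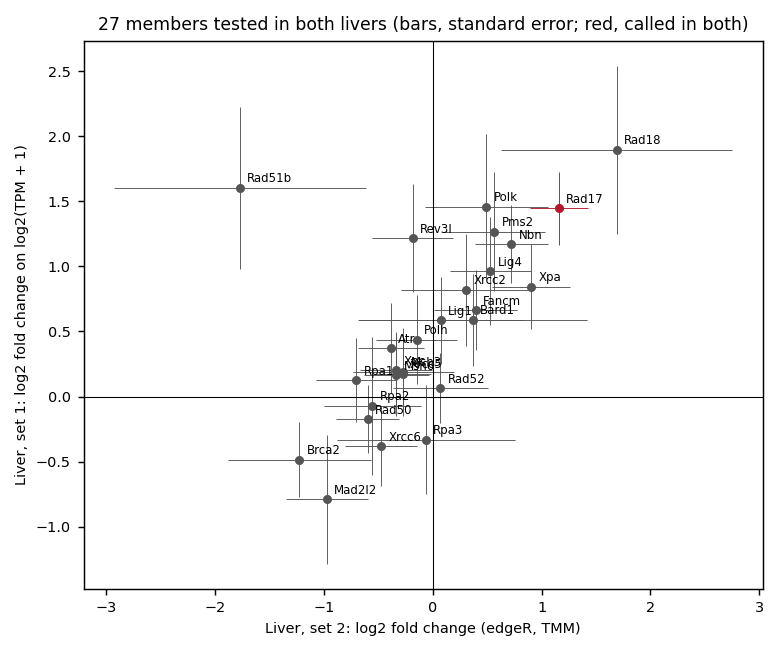
Log2 fold change of A3B over control in the liver of set 2 (edgeR, horizontal) and of set 1 (difference on log2(TPM + 1), vertical) for the 27 members tested in both, with bars of 1 standard error. Rad17, in red, is the member called in both, and Rad51b lies far from the rest at the upper left.

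In the lung, where the transgene was lower than in the livers of the same set, the translesion genes Rad18 and Rev3l were called higher and Poli, Rpa3, Chek2 and Rad50 lower. These are 2 and 4 of the 33 members tested (6.06% and 12.1%; limma on log2(TPM + 1)), against 16.1% and 20.8% of 13651 genes, and the median difference was −0.15 beside −0.06 for all genes. Groups did not overlap upward for 4 members and downward for 12, which 23.3% and 30.6% of all genes did. The members called are given with controls 87, 88 and 91 first and A3B lungs 69, 70 and 74 second.

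Rad18 was at 1.49, 1.34 and 1.35 TPM in controls and 3.09, 2.75 and 2.41 TPM in A3B (0.65, SE 0.11, adjusted p = 0.00691). Rev3l, the catalytic subunit of polymerase zeta, was at 152.8, 162.3 and 149.2 TPM in controls and 196.9, 205.3 and 272.9 TPM in A3B (0.52, SE 0.14, adjusted p = 0.0272). Both translesion genes rose without overlap, and Rev3l lost its call without control 87 or 91 or A3B lung 70 (0.50 to 0.58). Poli, of the same route, was at 1.26, 1.48 and 1.69 TPM in controls and 0.605, 0.767 and 0.886 TPM in A3B (−0.50, SE 0.12, adjusted p = 0.0187), and lost its call without A3B lung 69 or 70. Rpa3 was at 23.3, 14.6 and 24.7 TPM in controls and 7.24, 7.11 and 10.8 TPM in A3B (−1.21, SE 0.24, adjusted p = 0.0107). Chek2, the kinase downstream of Atm, was at 4.51, 4.08 and 3.83 TPM in controls and 1.79, 2.02 and 2.42 TPM in A3B (−0.74, SE 0.12, adjusted p = 0.00609). Rad50, the coiled-coil subunit of the break sensor, was at 14.2, 16.9 and 15.8 TPM in controls and 8.91, 10.1 and 11.4 TPM in A3B (−0.58, SE 0.12, adjusted p = 0.0122). All 4 were lower in every A3B lung than in any control.

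Rad17 did not rise in the lung. It was at 3.35, 3.23 and 3.09 TPM in controls and 2.62, 2.45 and 2.98 TPM in A3B (−0.20, SE 0.10, adjusted p = 0.154), so every A3B lung was below every control although the test was not passed, and its response in lung was not compared with that in liver by a test. Cdkn1a was at 3.19, 4.20 and 4.14 TPM in control lungs and 39.9, 32.4 and 28.5 TPM in A3B lungs. Mki67 was at 4.42, 9.97 and 6.93 TPM in controls and 3.47, 5.48 and 5.31 TPM in A3B (−0.46, adjusted p = 0.234). Of 20 p53 targets tested 8 were called higher and 3 lower (Bax, Phlda3, Ccng1). Of 19 proliferation markers tested 3 were called lower (Tyms, Mcm5, Rrm2) and 0 higher by limma. Among markers of other cells, 3 of 8 macrophage genes were called higher (Cd14, Marco, Mrc1) and Lyz2 lower, the fibroblast gene Pdgfra was called higher, and the endothelial genes Emcn and Kdr, the epithelial Sftpc and the T cell gene Cd2 were called lower. The macrophage sum was 1190 to 1296 TPM in controls and 962.3 to 997.5 TPM in A3B, and the part of these cells in the members' changes was not tested.

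Over the 4 comparisons of A3B with control, 23 members were called in none, 16 in 1, 3 in 2 and 1, Rad17, in 3. These are 53.5%, 37.2%, 6.98% and 2.33% of the members, beside 47.5%, 37.7%, 13.0% and 1.475% of the 16748 genes tested in both tissues of set 2. None of the 43 was called in both directions, which 2.11% of those genes were. Rad18 was called higher in pancreas and lung, and Rpa3 and Poli lower in both, with TMM scaling in the pancreas and TPM in the lung. With limma on log2(TPM + 1), the method used for the lung, Rpa3 (0.74) and Poli (0.26) were positive in the pancreas, so their shared direction holds only across different scalings. In the livers Rpa3 had −0.06 in set 2 and −0.33 in set 1, both uncalled.

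Other genes of the same routes, a list of 108, were counted for comparison. In the pancreas 13 of 107 tested were called higher and 18 lower (12.15% and 16.8%), against 17% and 14.9% of all genes. Those called higher included the checkpoint genes Wee1 (1.97), Tipin (1.15) and Topbp1 (0.87), and the excision repair genes Rad23b (1.31) and Ercc3 (1.03). Among the 18 called lower were Paxx (−2.04) in end joining, Rad51d (−1.15) and Swi5 (−1.33) in recombination, Fancc (−1.62) and Ube2t (−1.72) in the Fanconi anaemia route and Cetn2 (−1.97) and Gtf2h5 (−1.54) in excision repair. In the liver of set 2, of 107 tested, Rad54b, a Rad54-like translocase, alone was called (3.17, SE 0.53, adjusted p = 0.0155), at 0.83 and 1.05 TPM in controls and 6.82, 17.1 and 21.3 TPM in A3B. Rad54b was called higher in the livers of set 1 as well (2.01), where 4 of 77 rose and 3 were called lower (5.19% and 3.90%, against 6.07% and 1.86% of all genes). Rbbp8, which starts end resection, was higher there (2.92) and in lung (1.14). In lung 7 of 87 were called higher and 21 lower (8.05% and 24.1%, against 16.1% and 20.8% of all genes), the latter including Cetn2 and Mus81. The list also holds Mad2l1, a spindle checkpoint gene that belongs to none of these routes and was among those called lower in lung.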

How the data were processed

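RNA had been sequenced as paired-end reads of 100 nucleotides from a stranded kit. For set 2 the authors deposited kallisto estimated counts and TPM per transcript; whether kallisto was told the strand is not given in the sources used here. For set 1 they deposited TPM per gene, made from counts of reads after removal of duplicates; its depth is unknown. The labels name the builds GRCm38 and mm10. Transcripts of set 2 were summed by gene symbol (116728 of 119414 matched; the remainder held 0.225 to 1.46% of counts and was left out), and sums were rounded. Levels of the sets were not compared. Members that overlap a gene on the other strand, as Rad17, Lig1, Msh3 and Rev1 do, may share its reads.

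Set 2 was tested per tissue with edgeR 4.0.16 (filterByExpr, TMM, robust quasi-likelihood F test; standard errors derived from F) and set 1 with limma 3.58.1 on log2(TPM + 1) in R 4.3.3, leaving out genes whose mean was under 1 TPM. Such set 1 fold changes understate the change of low genes. P-values were adjusted over all genes by Benjamini-Hochberg and called at 0.05. The scripts were tested on simulated data with less spread than set 2 and no shift in RNA composition, so the pancreas scaling was not covered. Alternatives were DESeq2 1.42.0, RLE factors, library totals, no filter, limma on TPM, pseudocounts of 0.1 and 5, centring, a mouse block in the interaction and leaving out each mouse. Protein-coding transcripts alone, and livers 48 and 49 left out together, were chosen after seeing the data.

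The members, routes and other gene lists were chosen with earlier results of these data known. Values are given for members called in liver or lung, the 12 called pancreas members with the smallest p, the member with the smallest p per route in either set 2 tissue, and 5 members of the interaction; other values were chosen after they were seen. Samples of the 2 tissues of set 2 are paired because the labels give the same 7 mice. Over 16748 genes, deviations of the same A3B mouse correlated at 0.27 (44), 0.31 (137), 0.33 (125), 0.11 (153) and −0.01 (49). Those of different A3B mice correlated at −0.27 to 0.41. Liver 49 lay closest to pancreas 53 (0.41), and liver 153 to pancreas 44 (0.27). The 2 controls mirror each other around their own mean, so their values cannot inform on pairing. The pairing thus rests on the labels. Samples are separate mice within a group. No replicates of a group were duplicates (at most 0.0045% of genes identical). Values of some other genes of the same routes are not reported here.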

Additional observations from a re-analysis of the deposited data

Results flagged for a closer look

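In 3 members A3B liver 49 lay apart from the other 5 A3B livers, with Exo1 at 1.53 TPM, Bard1 at 0.378 TPM and Fancd2 at 0.698 TPM. The pancreas labelled as the same mouse also stood apart, with Bard1 at 0.701 TPM, Rad50 at 6.07 TPM and Rpa2 at 10.9 TPM, each the highest of 6. In CPM after TMM scaling Rad50 and Rpa2 of that pancreas lay close to the next A3B pancreas, at 14.5 beside 13.45 and 7.83 beside 7.29, and its TMM factor was the highest of the 8 (1.79). A3B liver 48 had the lowest Rpa1, at 3.55 TPM. Its macrophage markers summed to 29.1 TPM against 173.5 to 806.2 TPM in the other 7 livers, and its 10 most abundant genes took 28.2% of TPM against 15.5 to 19.0% in the other A3B livers. These are 7 flags by Dixon's gap test among 86 groups of samples tested, where chance gives about 1 in 20. The proliferation markers of mouse 49 summed to 288.5 TPM in liver and 370.1 TPM in pancreas, the highest of the A3B samples in each tissue. Its macrophage (806.2 TPM) and neutrophil (125.9 TPM) sums were the highest of the livers, and its T cell (150.1 TPM) and B and plasma cell (116.2 TPM) sums the highest of the A3B pancreases. The part of these cells in the values was not tested.

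In 7 members the A3B effect was called different between pancreas and liver by the interaction test: Lig1 (2.75), Mad2l2 (2.54), Xpc (2.01), Atm (1.77), Xrcc5 (1.52), Msh6 (1.48) and Rad50 (1.123), each the pancreas log2 fold change minus that of the liver. In edgeR with the mouse as replicate block, Lig1 (adjusted p = 0.0661) and Rad50 (adjusted p = 0.0826) were not called. All 7 differences rest on the same 2 control mice. Macrophage and fibroblast markers also differed between the tissues, 4 of 8 and 4 of 7 being called higher, and their part was not tested.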

How the results depend on the processing

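Over all settings, the 32 calls of members in the 5 comparisons kept their direction and side of the threshold 350 times, lost their call 79 times and reversed 10 times, each reversal in the pancreas. Fold changes of uncalled members also changed sign in some setting, for 18 of 26 in the pancreas, 24 of 42 in the liver of set 2, 24 of 36 in the interaction, 8 of 26 in set 1 liver and 6 of 27 in lung; Exo1 in the liver of set 2 ran from −1.46 to 2.04. With library totals alone the 6 members called lower became positive (Msh3 1.42, Fancm 1.06, Rpa3 0.69, Rev1 1.17, Poli 0.76, Prkdc 1.0), with 36 members called higher and 0 lower. With limma on log2(TPM + 1) the 4 of them that passed its minimum became positive (Msh3 0.88, Rpa3 0.74, Rev1 1.07, Poli 0.26), while Fancm and Prkdc were not tested, with 30 higher and 0 lower. These scalings keep the lower share of acinar RNA in the A3B libraries. Protein-coding transcripts alone gave 11 higher and 3 lower, without the lower calls of Msh3, Rev1 and Fancm, and leaving out each mouse gave 7 to 11 higher and 3 to 6 lower, the lowest counts without control 45 or 168.

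For the liver of set 2, counts of all genes called are given in brackets. DESeq2 called 1 member lower (1099 of 17049), and RLE factors 0 higher and 1 lower (196 and 504 of 17376). Library totals called 2 higher (878 of 17376), no filter 0 higher (187 of 24484) and protein-coding transcripts 1 lower (356 of 15439). Leaving out livers 48 and 49 together gave 3 lower (1620 of 16798). Leaving out each mouse gave 0 to 1 higher and 0 to 1 lower. In set 1 liver, no filter and centring each gave 0 higher, and leaving out each mouse 0 to 3. In lung leaving out each mouse gave 1 to 2 higher and 3 to 5 lower, where 1384 to 2129 genes were called higher and 1546 to 2450 lower. The cause of these changes was not tested.

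For the difference between pancreas and liver, pairing the tissues by mouse as a replicate block left 5 members higher and 0 lower. In that fit 1129 and 486 of 19927 genes were called. Mad2l2, Xpc, Xrcc5, Msh6 and Atm kept their calls, while Rad50 (1.20) and Lig1 (2.83) lost theirs. With counts of all genes in brackets, DESeq2 called 2 lower (1919 of 18525), RLE factors 1 lower (1094 of 19927) and library totals 21 higher (7848 of 19927). Limma on log2(TPM + 1) called 23 of 36 members higher (7691 of 13577). No filter gave 4 higher (1173 of 27142) and protein-coding transcripts 4 higher (1070 of 17339). Leaving out livers 48 and 49 together gave 13 higher and 2 lower, and leaving out each mouse 0 to 8 higher and 0 to 2 lower. With 2 control mice in set 2, 1 mouse can end a call, and Exo1, Bard1 and Fancd2 had 6 to 9 counts in the A3B liver where each was lowest.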
